A study of Mus musculus with 18 samples.

Results

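Atrial marker genes were examined in ventricle samples of 18 mouse hearts. They were 6 genes, Myl7, Myl4, Sln, Dkk3, Stard10 and Bmp10, taken by name from the 23457 genes of the count table and also present among the 23396 genes of the FPKM table. They were chosen by name as atrial genes, with counts and FPKM of these hearts already known, so their levels are given as descriptions and the tests on them are not independent evidence. Of the 6, 5 passed the filter on low counts that left 12281 genes for testing, and Bmp10 did not.

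The samples came from C57BL/6 male mice aged 17 weeks, 6 in each of 3 groups. Each mouse had received 1 vector by tail vein at 8 weeks of age, and tissue was taken 9 weeks later. The vectors were rAAV6-PLCβ1b, which carries FLAG-tagged phospholipase Cβ1b, rAAV6-PLCβ1a, which carries the FLAG-tagged splice variant PLCβ1a, and rAAV6-blank, which has a promoter and no protein product. No mouse was without a vector, so a response shared by all 3 vectors cannot be seen. The sample labels name both ventricles, whereas the study's methods name the left ventricle. Hearts are called here by their mouse number. These numbers ran from 26 to 36 in the blank group, from 7 to 21 in the PLCβ1a group and from 4 to 17 in the PLCβ1b group. Library numbers ran from 1 to 6, from 7 to 12 and from 13 to 18, in the same order. A difference between groups therefore cannot be told apart from an effect of library order. A difference from blank hearts cannot be told apart from an effect of mouse number order either.

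Atrial and ventricular cardiomyocytes share a contractile plan but use partly different proteins. Atrial myocytes build their myosin with the light chains MYL7 and MYL4, where ventricular myocytes use MYL2 and MYL3. The calcium pump SERCA2a is held back in atria mainly by sarcolipin, the product of Sln, and in ventricles by phospholamban, the product of Pln. Bmp10 encodes a ligand of the BMP family that in the adult is made mainly in the right atrium. Dkk3 encodes a secreted glycoprotein of the Dickkopf family, and Stard10 encodes a phospholipid transfer protein with a START domain.

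In mm10, the build of the deposited tables, Myl7 lies on chromosome 11 from 5896637 to 5898782 on the minus strand, with 7 exons and 590 exonic bases. Myl4 lies on chromosome 11 from 104550663 to 104587219 on the plus strand, and the microRNA gene Mir684-1 overlaps it on the other strand. Sln, with 2 exons and 520 exonic bases, lies on chromosome 9 from 53850251 to 53853849 on the plus strand. Dkk3 spans 112116019 to 112159057 on the minus strand of chromosome 7, and Stard10 spans 101321319 to 101346312 on its plus strand. Bmp10 lies on chromosome 6 from 87429002 to 87434512 on the plus strand. No stretch of 76 bases, the read length, in a transcript of any of the 6 genes was found in a transcript of another gene. The longest identical run between Myl7 and its ventricular counterpart Myl2 was 16 bases, that between Myl4 and Myl3 was 29 bases, and that between Sln and Pln was 13 bases.

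The 250 bases before the start site are shown for Myl7 and Myl4, the members of the set that moved together most closely and have an entry in the RefSeq promoter table (GRCm38.p6), and for Mybphl, the gene outside the set with the highest Pearson's r with the set's mean pattern. The windows are chr11:5898783-5899032 on the minus strand for Myl7, chr11:104550413-104550662 on the plus strand for Myl4 and chr3:108364661-108364910 on the plus strand for Mybphl. Each is written 5′ to 3′ along the gene, and capitals mark matches to the motifs searched.
Myl7: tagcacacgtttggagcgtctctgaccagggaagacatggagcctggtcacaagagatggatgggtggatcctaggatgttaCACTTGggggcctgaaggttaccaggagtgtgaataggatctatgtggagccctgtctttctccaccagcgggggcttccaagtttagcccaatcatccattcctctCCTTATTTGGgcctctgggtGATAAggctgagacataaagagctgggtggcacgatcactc
Myl4: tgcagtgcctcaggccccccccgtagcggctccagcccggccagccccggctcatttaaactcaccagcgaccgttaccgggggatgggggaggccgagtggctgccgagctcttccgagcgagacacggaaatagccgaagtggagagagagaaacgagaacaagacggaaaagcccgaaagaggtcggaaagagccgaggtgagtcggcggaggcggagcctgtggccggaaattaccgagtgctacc
Mybphl: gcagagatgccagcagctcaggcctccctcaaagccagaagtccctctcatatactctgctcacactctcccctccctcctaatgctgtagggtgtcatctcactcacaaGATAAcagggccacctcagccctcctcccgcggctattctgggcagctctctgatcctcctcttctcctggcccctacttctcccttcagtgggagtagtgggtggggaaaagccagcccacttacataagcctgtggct

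The motifs were searched on both strands. They were the TATA box with the letters TATAAA, the E-box with the letters CANNTG, the GATA site with the letters GATAA, the T-box half-site with the letters AGGTGT, the nuclear receptor half-site with the letters AGGTCA, the CArG box and the MEF2 site. Motifs other than these were not searched, and matches in the 3 windows shown do not overlap each other. The Myl7 window held an E-box 168 to 163 bases before the start, a CArG box 61 to 52 bases before it and a GATA site 41 to 37 bases before it. The Mybphl window held a GATA site 140 to 136 bases before the start, and the Myl4 window held no match. Among all 32851 RefSeq windows of this length, 66.2% held an E-box, 22.6% a GATA site, 14% a nuclear receptor half-site, 12.4% a TATA box, 11.8% a T-box half-site, 1.5% a CArG box and 0.5% a MEF2 site. The promoter table also held Bmp10, with 2 GATA sites, and Stard10, whose entry belongs to another start site than that of the mm10 model above, but it had no entry for Sln or Dkk3.

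Libraries held 13246339 to 24155465 counts, of which 3908354 to 7591558 fell on nuclear genes, because mitochondrial genes took 67.069% to 71.852%. The vector's gene was seen in its groups: Plcb1 had 71 to 140 counts in blank hearts, 275 to 570 in PLCβ1a hearts and 463 to 1598 in PLCβ1b hearts. Myl2 and Myl3, the ventricular light chains, stood at a mean of 5574 ± 301.1 and 1724 ± 118.5 FPKM (SD, n = 18), so the samples were mainly ventricular. These levels cannot show whether a small part of atrial tissue was present, or whether 1 or both ventricles were taken. Across genes, the median correlation of a heart with the other hearts lay between 0.9836 and 0.989, and no library stood apart by this measure. PLCβ1a heart 21 stood apart in its markers of other tissues. It held the highest counts of all 8 fast skeletal muscle genes listed, whose summed level was 10.15 FPKM there and at most 0.7822 in blank and 0.7217 in PLCβ1b hearts, and the highest counts of 3 of 6 adipocyte genes. Fold changes of Myl7, Myl4 and Sln, ratio differences and correlations among these 3 genes that include it are also given without it.

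All members except Bmp10 were detected in every heart, at low levels. On the FPKM scale, which allows genes to be compared per length, Myl7 averaged 19.43 ± 6.814 (SD, n = 18 hearts) and Myl4 11.23 ± 4.037. Stard10 averaged 5.869 ± 0.5744 FPKM, Sln 4.612 ± 2.415 and Dkk3 2.254 ± 0.4975. Myl7 exceeded Myl4 in 18 of 18 hearts and Myl4 exceeded Stard10 in 17. Stard10 exceeded Sln in 15 of 18 hearts, and Sln exceeded Dkk3 in 17. The ranges of each of these neighbours overlapped, so the order held within hearts rather than between them.

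The light chains come first. Myl7 stood at 5.653, 8.071 and 9.093 CPM (lowest, median and highest) in the blank hearts, where CPM are counts scaled to the library's total over all genes, mitochondrial ones included, after TMM normalization. In the PLCβ1a hearts Myl7 stood at 3.367, 8.516 and 13.47 CPM, and in the PLCβ1b hearts at 4.021, 6.205 and 8.046 CPM. The PLCβ1a group held both the lowest heart, number 9, and the highest, number 13, and the groups overlapped. All 6 PLCβ1b hearts lay below the blank median and 2 of them lay below every blank heart.

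Myl4 stood at 7.324, 8.2 and 9.34 CPM in the blank hearts, at 3.196, 9.049 and 13.36 CPM in the PLCβ1a hearts and at 3.858, 6.51 and 8.146 CPM in the PLCβ1b hearts. Again PLCβ1a heart 13 was the highest, and PLCβ1a heart 14 was the lowest. Of the PLCβ1b hearts, 5 of 6 lay below every blank heart, and heart 8 lay within the blank range.

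Sln, the sarcolipin gene, stood at 1.475, 1.497 and 1.758 CPM in the blank hearts and at 0.6521, 1.081 and 1.275 CPM in the PLCβ1b hearts. All 6 PLCβ1b hearts therefore lay below all 6 blank hearts. Between these groups 26 of 12281 genes lay below without overlap, which is 0.212% of the genes, and 0.48% were separated in either direction. In the PLCβ1a hearts Sln stood at 0.6121, 1.734 and 3.902 CPM, with 3 hearts below every blank heart and 3 above every one. Of those below, heart 7 was so by little, at 1.45 CPM. On FPKM it lay within the blank range, at 4.604 against 4.554 to 5.375. Sln rested on 10 to 71 counts a heart. The blank hearts differed by a coefficient of variation of 8.262%, less than the 19.16% that counting alone gives at this depth, so their narrow range is closer than their counts can fix.

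Dkk3 stood at 4.997, 6.513 and 8.176 CPM in the blank hearts, at 3.213, 7.035 and 7.915 CPM in the PLCβ1a hearts and at 4.598, 6.249 and 7.584 CPM in the PLCβ1b hearts. The lowest was again PLCβ1a heart 9, and the groups overlapped over most of their range. Stard10 stood at 4.814, 5.387 and 5.8 CPM in the blank hearts, at 4.953, 5.722 and 6.472 CPM in the PLCβ1a hearts and at 4.782, 5.303 and 6.119 CPM in the PLCβ1b hearts. Its 3 groups were nearly superimposed, and PLCβ1a heart 14, the lowest for Myl4, was the highest for Stard10.

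Bmp10 had 6 counts in all. There was 1 in blank heart 30, 1 in PLCβ1a heart 7 and 4 in PLCβ1b heart 10, and the other 15 hearts had none. A count of 0 allows up to 3 counts, which scaled to nuclear counts alone is 0.3952 to 0.7676 CPM over all the hearts, so the gene's level in those hearts was below what this depth can show. PLCβ1b heart 10 also had the highest count, 4, of Gdf2, which encodes the related ligand BMP9. On CPM, Sln and Stard10 in that heart were the highest of the PLCβ1b group, at 1.275 and 6.119. On FPKM, PLCβ1b heart 8 was the highest for both, at 4.055 and 6.574, against 3.718 and 6.172 in heart 10. Myl7 and Myl4 in heart 10 lay amid the group, at 6.055 and 6.629 CPM.

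**Figure D1:**
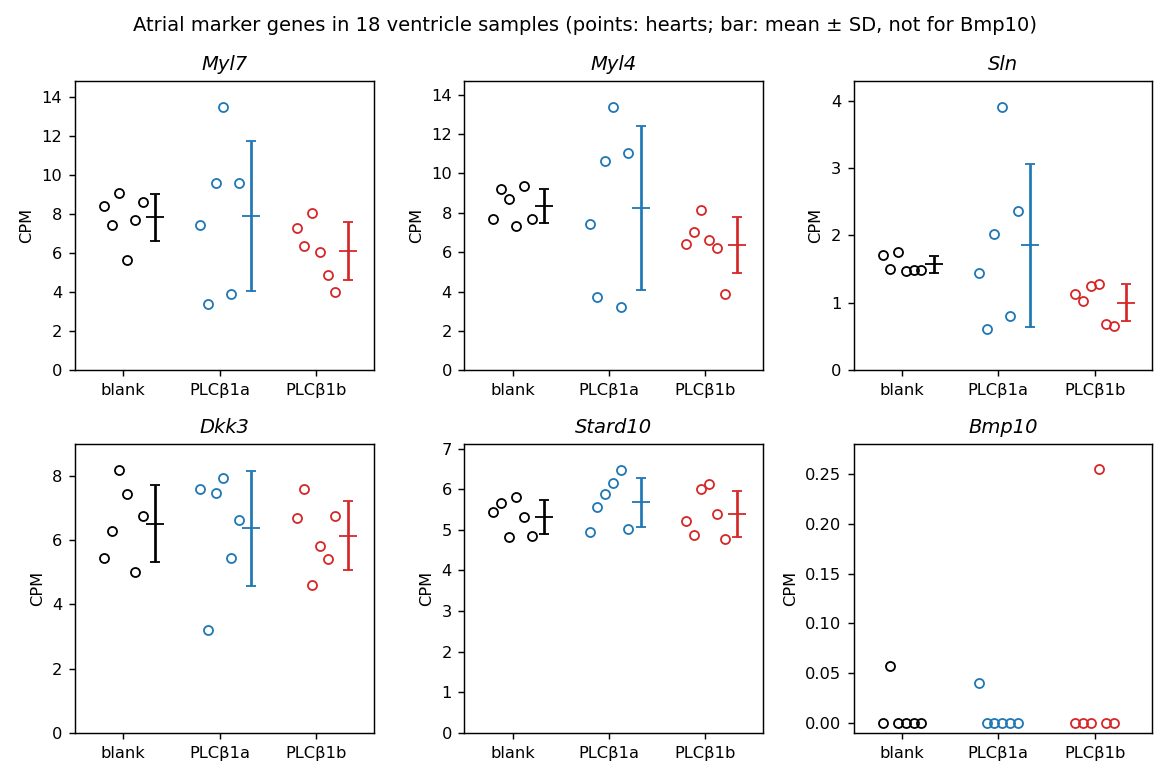
CPM (TMM-scaled) of the 6 atrial marker genes, 1 panel a gene, with 1 open circle for each heart in the blank, PLCβ1a and PLCβ1b groups and the mean ± SD beside the 5 genes that passed the filter. For Myl7, Myl4 and Sln the PLCβ1a hearts spread widest, from 0.6121 to 3.902 CPM for Sln, and the PLCβ1b hearts of Sln all lie below the blank hearts.

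The members differed in how far hearts of 1 group lay apart. The biological coefficient of variation, the part of the spread between hearts beyond counting error, was 0.33 for Myl7, 0.34 for Myl4, 0.35 for Sln, 0.208 for Dkk3 and 0.0591 for Stard10. Its median over all 12281 genes was 0.071. Of all genes, 99.4% had a lower value than Myl7, 99.5% lower than Myl4, 99.5% lower than Sln and 98.2% lower than Dkk3, but only 21.9% lower than Stard10. Among the 500 genes nearest in level, 99.6% had a lower value than Myl7 and 99.2% lower than Sln. Stard10's coefficient of variation over the hearts, 9.629%, was no larger than the 10.15% that counting gives, whereas that of Myl4, 33.95%, exceeded its counting value of 9.265%.

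The spread was not the same in each group. On the log2 CPM scale the SD of Myl7 was 0.2461 among the blank hearts, 0.791 among the PLCβ1a hearts and 0.3705 among the PLCβ1b hearts. For Myl4 it was 0.1513, 0.8685 and 0.3652, and for Sln 0.1163, 1.001 and 0.4283, in the same order. Whether the groups differ in spread was not tested.

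Myl7, Myl4 and Sln rose and fell together from heart to heart. Pearson's r of log2 CPM over the 18 hearts was 0.933 for Myl7 and Myl4, 0.928 for Myl7 and Sln and 0.891 for Myl4 and Sln. Spearman's rho was 0.911, 0.901 and 0.924. Without PLCβ1a hearts 9 and 14, the farthest from the median, r stayed at 0.9 and 0.919 for the pairs with Myl7, and at 0.903 for Myl4 and Sln. Without PLCβ1a heart 21 the 3 values were 0.93, 0.926 and 0.881. The pairs share their libraries and scaling, and these values are descriptions.

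The relation was closest within the PLC groups. For Myl7 and Myl4, r was 0.981 within the PLCβ1a hearts and 0.872 within the PLCβ1b hearts. Within the blank hearts, whose levels spanned a narrow range, it was 0.306. With group means removed r of this pair was 0.927 over all the hearts. For Myl7 and Sln, r was 0.987 within the PLCβ1a hearts, 0.889 within the PLCβ1b hearts and 0.603 within the blank hearts. For Myl4 and Sln it was 0.957, 0.762 and 0.004, so this last pair did not move together within the blank hearts.

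Over all the hearts, Dkk3 followed these genes in part and Stard10 did not. For Dkk3, r was 0.538 with Myl7, 0.478 with Myl4 and 0.535 with Sln. These values rested on few hearts: r fell to 0.223 and 0.153 without PLCβ1a hearts 9 and 14 for the pairs with Myl7 and Myl4, and to 0.265 without hearts 9 and 13 for the pair with Sln. Within groups of 6 hearts, r of Dkk3 and Myl7 was 0.862 for PLCβ1a, -0.085 for blank and -0.292 for PLCβ1b. For Stard10, r was -0.053 with Myl7, -0.029 with Myl4, 0.123 with Sln and -0.304 with Dkk3. Within the PLCβ1b hearts it was 0.508 with Myl7, 0.619 with Myl4 and 0.642 with Sln, while within the blank hearts it was -0.81, -0.095 and -0.387.

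**Figure D2:**
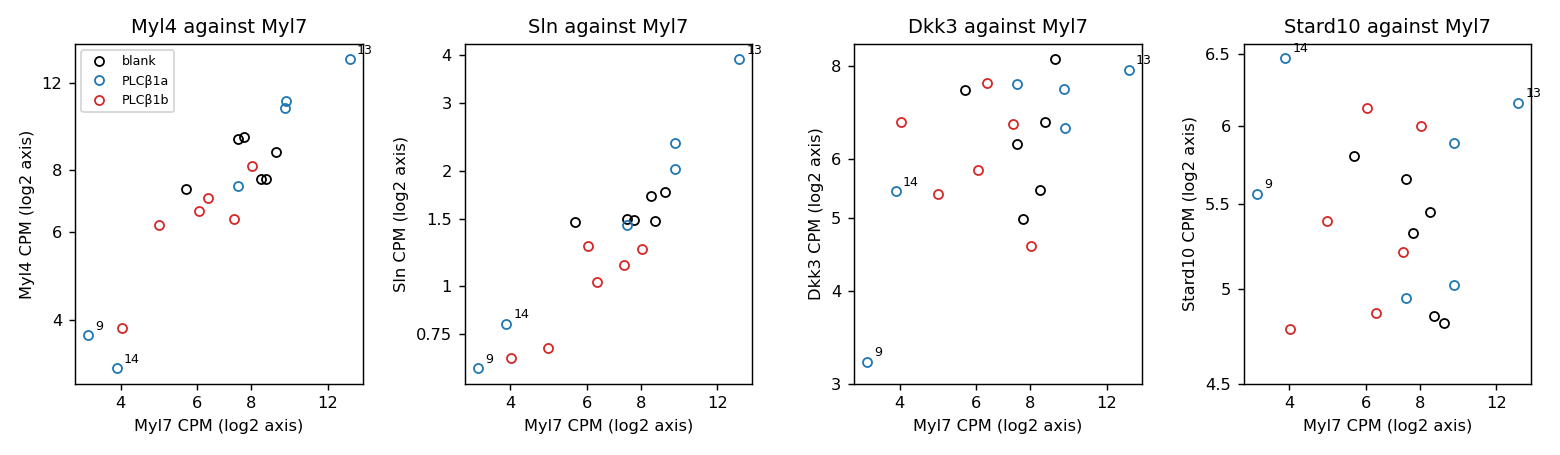
CPM of Myl4, Sln, Dkk3 and Stard10 against CPM of Myl7, with both axes on a log2 scale and 1 circle for each of the 18 hearts, in black for blank, blue for PLCβ1a and red for PLCβ1b. Myl4 and Sln follow Myl7 from PLCβ1a heart 9 up to heart 13 (r = 0.933 and 0.928), Dkk3 does so loosely and Stard10 does not.

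The pattern of the set, the mean of the 5 members' standardized log2 CPM, ran from -1.576 in PLCβ1a heart 9 to 1.647 in PLCβ1a heart 13. Blank hearts lay between 0.022 and 0.359. In the PLCβ1b group it ran from -1.12 in heart 17 to 0.075 in heart 8. Over the hearts its r was 0.014 with the nuclear counts of the library, -0.379 with the mitochondrial percentage and -0.212 with Plcb1 counts.

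Mybphl, which encodes an atrial relative of cardiac myosin-binding protein C, had the highest Pearson's r with this pattern outside the set, 0.858 over 18 hearts, and a Spearman's rho of 0.672, below those of Mecr (0.759) and Parp11 (0.754). Its counts were low, from 4 in PLCβ1b heart 16 to 36 in PLCβ1a heart 13. The next 9 were Parp11, Mecr, Metrnl, Tgfbi, Anxa1, Nhlrc3, Ppox, Wdr92 and Col14a1, with r from 0.785 down to 0.675. Of the 12276 other genes 177, or 1.442%, had an r above 0.5. This ranking was not stable: of the 10 genes, 6 were again among the first 10 on log2 FPKM, 4 with group means removed and 2 by Spearman's rho, and Mybphl was in the first and second of these but not the last. Taken singly, Myl7 and Sln had each other, Myl4 and then Mybphl as their nearest genes (r = 0.876 and 0.869 for Mybphl). The third gene for Myl4, after Myl7 and Sln, was Metrnl with an r of 0.796. Dkk3 was most like Mul1, Pik3cd and Myo6 (r = 0.791, 0.728 and 0.723), and Stard10 most like Sec16a, Wnk1 and Ablim1 (r = 0.897, 0.782 and 0.782), with no member of the set among them.

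Other genes known to be higher in atria were listed, 16 in all, of which 13 were tested. Their r with the pattern was positive for 11 of 13, with a median of 0.251, beside a median of -0.0 over all genes. Only Mybphl and Nppa, the atrial natriuretic peptide gene (r = 0.611), passed 0.5. Nppa ranged from 22.27 to 35.61 CPM in the blank hearts, from 16.53 to 31.77 CPM in the PLCβ1a hearts and from 23.09 to 34.67 CPM in the PLCβ1b hearts. Kcnj3 and Nr2f1, an atrial potassium channel subunit and a transcription factor, had r of -0.202 and -0.196.

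All 6 ventricular markers had a negative r with the pattern, with a median of -0.264. Irx4, a transcription factor of ventricular myocytes, reached -0.515, Myl3 -0.407 and Myl2 -0.357. Pln, Myh7 and Hey2 lay nearer 0, at -0.171, -0.146 and -0.089. A negative r was not particular to ventricular genes. The myosin light chain list, which includes Myl2 and Myl3, had a lower median of -0.303. In it Myl12a stood at -0.441 and Myl6 at -0.303, and 2 of the 7 tested genes had a positive r. Sinoatrial node genes had a median r of 0.005 over the 6 tested, and Isl1 had no count in any heart. Mesothelial genes had a median of 0.047 and smooth muscle genes -0.178. Fibroblast genes had a median of 0.323, but they differed among themselves. Tcf21 stood at -0.172, Pdgfra at 0.05, Col1a1 at 0.323, Dcn at 0.359 and Postn, a matrix protein gene, at 0.604. The SERCA system genes had a median of 0.29. In bulk samples fewer cells of a type and less RNA per cell cannot be told apart. Atrial tissue left on a ventricle and expression of the atrial genes in ventricular cells therefore cannot be told apart either.

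**Figure D3:**
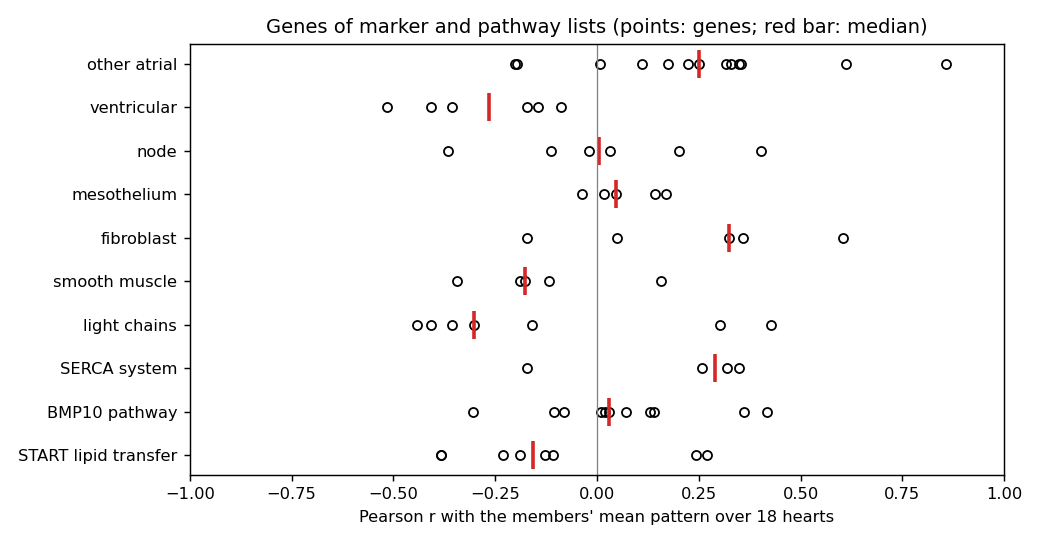
Pearson's r over 18 hearts between the log2 CPM of each tested gene of 10 marker and pathway lists and the mean pattern of the atrial marker genes, with 1 circle for each gene and a red bar at the median of each list. The other atrial genes have a median of 0.251 with Mybphl at 0.858, and all 6 ventricular genes lie below 0. The light chain genes, which include Myl2 and Myl3, have a lower median, -0.303, than the ventricular genes, -0.264. The medians of the fibroblast genes, 0.323, and of the SERCA system genes, 0.29, are higher than that of the other atrial genes.

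The comparison of PLCβ1b with blank hearts sets the vector that expresses PLCβ1b beside the blank vector, with library and mouse number order differing as well. None of the 5 members tested was called by edgeR's quasi-likelihood test at an FDR below 0.1, where 12 of 12281 genes, 0.0977%, were called, and DESeq2 and limma called none of them either. None of the 5 had an unadjusted p under 0.05 in the 3-group edgeR fit, where 7.41% of genes did, while DESeq2 and limma each had 1 member under it. The log2 fold change of Sln was -0.62 ± 0.355 (SE, edgeR adjusted p = 0.7477). It was -0.38 ± 0.2845 for Myl4 (edgeR adjusted p = 0.8186) and -0.33 ± 0.283 for Myl7 (edgeR adjusted p = 0.8477). Dkk3 and Stard10 stood at -0.07 ± 0.1881 and 0.02 ± 0.09136. The median of the 5 was -0.33, and over all genes it was -0.000882. This fit estimates 1 spread per gene over all 3 groups, so the spread of the PLCβ1a hearts enters the error here. Fitted on the blank and PLCβ1b hearts alone, 2 of the 5 members had an unadjusted p under 0.05 and none was called. The adjusted p of Sln was then 0.3235, and over all alternatives it lay between 0.3235 and 0.8659.

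Against blank, the PLCβ1a hearts had no member called either, beside 17 called genes (0.138%), and none with an unadjusted p under 0.05, where 8.58% of genes had one. Limma called no member, and DESeq2 gave none of the 5 an adjusted p in this comparison and so could not call one. The CPM of these groups did not overlap for 0.594% of genes, and for no member. Sln had a log2 fold change of 0.27 ± 0.3178 (edgeR adjusted p = 0.8641), and Myl7 and Myl4 had 0.04 ± 0.2732 and 0.01 ± 0.274. The sign of all these was set by single hearts: without PLCβ1a heart 13 they were -0.0723, -0.1675 and -0.1748, and without heart 21 they were 0.1909, -0.01922 and -0.09249. Dkk3 and Stard10 stood at -0.02 ± 0.1873 and 0.08 ± 0.09092. Of the 6 PLCβ1a hearts, 3 lay above every blank heart for each of Myl7, Myl4 and Sln. On CPM, 2 lay below every blank heart for Myl7 and for Myl4, and 3 did for Sln, of which heart 7 did not on FPKM.

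Between PLCβ1b and PLCβ1a hearts no member and no gene at all (0.0%) was called by edgeR. With no adjustment, 543 genes (4.42%) had a p under 0.05, among them 1 member, and DESeq2 and limma each called 1 gene, which was no member. That member was Sln, with a log2 fold change of -0.89 ± 0.3406 (edgeR adjusted p = 1). Without PLCβ1a heart 13 it was -0.5432, and without heart 21 it was -0.8062. For Myl7 and Myl4 it was -0.37 ± 0.2797 and -0.39 ± 0.2824, which became -0.1622 and -0.2057 without heart 13 and -0.3102 and -0.288 without heart 21. All 6 PLCβ1b hearts lay below the PLCβ1a median for these 3 genes, and none lay below every PLCβ1a heart. Groups that did not overlap made up 0.179% of genes here. The comparisons share their control hearts, and each is given on its own.

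**Figure D4:**
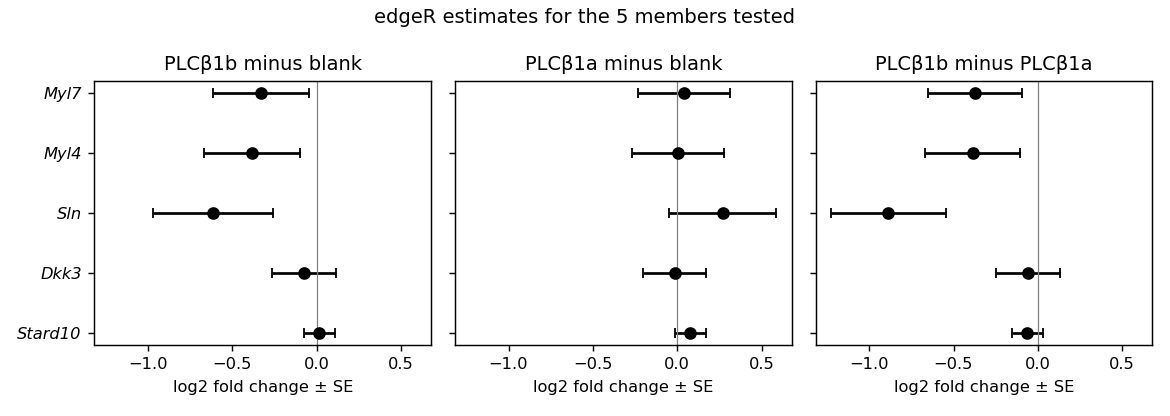
Log2 fold changes ± SE from the edgeR fit for the 5 members tested, in 3 panels for PLCβ1b minus blank, PLCβ1a minus blank and PLCβ1b minus PLCβ1a. Sln lies farthest below 0 in the first and last panels, at -0.62 and -0.89, and no adjusted p passed the threshold.

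A ratio within a heart does not depend on the scaling of its library. Of the summed FPKM of Myl7 and Myl2, the share of Myl7 was 0.3711% ± 0.058 (SD over 6 hearts) with the blank vector, 0.3765% ± 0.1893 with PLCβ1a and 0.2953% ± 0.08024 with PLCβ1b. Of the sum of Myl4 and Myl3, the share of Myl4 was 0.6915% ± 0.08751 with the blank vector, 0.7149% ± 0.3636 with PLCβ1a and 0.5293% ± 0.1162 with PLCβ1b. The highest shares in any heart, 0.6633% for Myl7 and 1.138% for Myl4, were both in PLCβ1a heart 13.

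The Sln to Pln ratio was 0.3537%, 0.3631% and 0.3925% (lowest, median and highest) in blank hearts, 0.1478%, 0.3973% and 0.9088% in PLCβ1a hearts and 0.1479%, 0.2475% and 0.3022% in PLCβ1b hearts. The PLCβ1b hearts lay below all blank hearts, and the PLCβ1a hearts lay on both sides of them. The difference of means between PLCβ1b and blank was -0.1349 percentage points (exact two-sided permutation test, p = 0.0022, the smallest it can give, and 0.0195 after Benjamini-Hochberg adjustment over the 9 ratio tests). It kept its side of 0.05 with any 1 heart left out, at differences from -0.1487 to -0.1178. Pln itself differed little, with a log2 fold change of -0.01 ± 0.03634, so the ratio carries the values of Sln given above, their counting error and the choice of the gene with its values known.

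For the Myl4 share the same difference was -0.1622 percentage points (exact permutation p = 0.0173, adjusted p = 0.0779), and leaving out PLCβ1b heart 8 took the adjusted p to 0.0195. For the Myl7 share it was -0.07583 (exact permutation p = 0.0996, adjusted p = 0.2679). Between PLCβ1a and blank hearts the 3 differences had adjusted exact permutation p of 0.885 to 0.9589, and between PLCβ1b and PLCβ1a hearts of 0.2679 to 0.5519. Without PLCβ1a heart 21 the differences of PLCβ1a from blank were -0.005137 for the Myl7 share, -0.02239 for the Myl4 share and 0.03785 for Sln to Pln, and those of PLCβ1b from PLCβ1a were -0.07069, -0.1398 and -0.1728. Without heart 13 the latter were -0.02383, -0.101 and -0.09838, against -0.08119, -0.1856 and -0.1945 with all hearts.

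**Figure D5:**
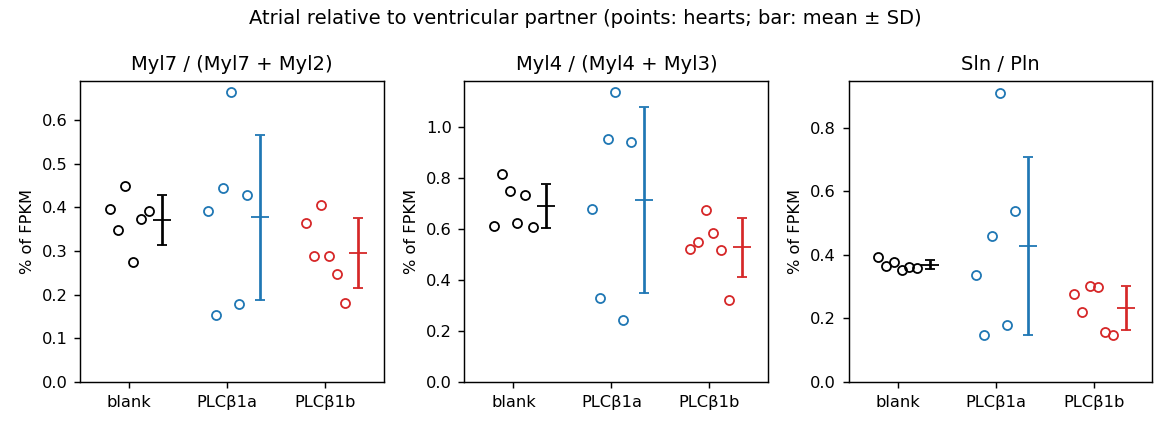
Myl7 as a percentage of Myl7 plus Myl2, Myl4 as a percentage of Myl4 plus Myl3, and Sln as a percentage of Pln, all from FPKM, with 1 circle for each heart and the mean ± SD beside each group of 6. The PLCβ1b hearts lie below the blank hearts for Sln to Pln, at 0.1479% to 0.3022% against 0.3537% to 0.3925%.

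Genes of related pathways and of the members' families were read from lists, and none was called in any of the 3 comparisons. Of all genes, 0.0977%, 0.138% and 0.0% were called in these. Unless another comparison is named, the medians and the counts with an unadjusted p under 0.05 are for PLCβ1b against blank. The share of all genes with such a p was 7.41% there, 8.58% for PLCβ1a against blank and 4.42% between the PLC groups. Of the SERCA system 4 genes were tested, with a median log2 fold change of -0.037 and 1 unadjusted p under 0.05, that of Casq2. For PLCβ1a against blank Casq2 had one as well. Atp2a2, the SERCA2 gene, averaged 1380 ± 126.3 FPKM with the blank vector, 1340 ± 116.3 with PLCβ1a and 1316 ± 80.88 with PLCβ1b (SD over 6 hearts), and the groups overlapped. Of the BMP10 pathway 11 of 12 genes were tested, with a median of -0.052 and 1 unadjusted p under 0.05, that of Id3. For PLCβ1a against blank 2 had one, Eng and Smad6, and between the PLC groups 1 had one, Eng. The list includes the receptors Acvrl1, Eng and Bmpr2 and the target genes Id1, Id2 and Id3. Of the Dickkopf relatives and their receptors 3 of 8 were tested, Kremen1, Lrp5 and Lrp6, with a median of 0.032. Among them 1, Lrp5, had an unadjusted p under 0.05, and Dkk1, Dkk2 and Dkk4 had 0 to 5 counts a heart. The 8 tested START domain genes had a median of -0.059 and no unadjusted p under 0.05, and 1, Stard4, had one between the PLC groups. Of the myosin light chain genes 7 were tested, with a median of 0.009 and 1 unadjusted p under 0.05.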

How the data were processed

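RNA of each heart was depleted of ribosomal RNA and sequenced as strand-specific pairs of 76 nt. Reads were aligned with TopHat to mm10, and the authors deposited raw counts per gene from HTSeq and, separately, FPKM. The submitters' processing notes name TopHat2 2.0.10 and Cufflinks 2.1. Counts carry no normalization, and FPKM are per exon length and library size. Each heart is a separate mouse. Counts were filtered with filterByExpr (minimum 10, minimum total 15), scaled by TMM and tested in 1 model of the 3 groups with edgeR 4.0.16 (quasi-likelihood, robust) under R 4.3.3, with Benjamini-Hochberg adjustment over all tested genes and calls at an FDR below 0.1. Log2 CPM used a prior count of 2. DESeq2 1.42.0 and limma 3.58.1 were alternatives. Ratios used exact permutation tests (scipy 1.17.1). Scripts were tested on simulated data. Genes named are the members, their fixed partners, the 10 genes most like the members' pattern, the 3 most like each, and list genes with the highest level or r. Others are named to describe a list. Members and lists were chosen with earlier results of these data known. Gene names that read as dates (27 in the counts) hold 0.0442% of counts and were not matched to FPKM. The upper limit given for Bmp10 covers counting error only, whereas the SE and SD values include differences between hearts.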

Additional observations from a re-analysis of the deposited data

Results flagged for a closer look

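In 3 of 27 groups of 6 hearts checked, 1 heart lay far from the others. Chance gives about 1 in 20 for spread-out values, a rate that does not apply here, since any count beside 5 hearts at 0 lies far from them. All were Bmp10, in which a single heart had counts and the other 5 had none: blank heart 30 at 0.05768 CPM, PLCβ1a heart 7 at 0.04027 CPM and PLCβ1b heart 10 at 0.255 CPM. The first and second of these are 1 count each.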

How the results depend on the processing

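No paired analysis was possible because mouse numbers are not shared between groups. No alternative called a member, but DESeq2 gave members no adjusted p for PLCβ1a against blank and could not call one there. Genes called for PLCβ1b against blank were 7 at an FDR below 0.05, 24 without the filter, 24 by DESeq2 and 5 by limma with either pseudocount, and 2 to 18 with 1 heart left out (2 without blank 34 or PLCβ1b 17, 4 without PLCβ1b 4, 6 without PLCβ1b 6). For PLCβ1a against blank they were 4, 29, 33 and 5, then 10 on those groups alone, 10 without robust estimation (chosen after seeing the data), and 3 to 19 with 1 heart left out (3 without blank 34 or PLCβ1a 11, 7 without PLCβ1a 7, 8 without blank 32, 9 without PLCβ1a 14, 10 without blank 36). For PLCβ1b against PLCβ1a it was 1 by DESeq2, by limma with either pseudocount and without robust estimation, and 0 to 1 with 1 heart left out (1 without PLCβ1a 14 or PLCβ1b 8).

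Signs turned near 0. Under limma on log2(FPKM + 0.1) and log2(FPKM + 1), Stard10 for PLCβ1b against blank was -0.01112 and -0.009383, and for PLCβ1a against blank Myl7 was -0.1603 and -0.1445, Myl4 -0.222 and -0.1845 (-0.01595 by DESeq2) and Sln -0.07733 and -0.02715. As log2 ratios of CPM the PLCβ1a differences were -0.1407 for Myl7, -0.1653 for Myl4 and -0.01717 for Sln. With 1 heart left out, log2 fold changes against blank ran for PLCβ1b from -0.1471 to 0.001324 for Dkk3 and -0.01951 to 0.04839 for Stard10, and for PLCβ1a from -0.1675 to 0.2044 for Myl7, -0.1748 to 0.1618 for Myl4, -0.0723 to 0.4597 for Sln and -0.08869 to 0.1268 for Dkk3. Dkk3 between the PLC groups ran from -0.2005 to 0.01624. Ratio differences of PLCβ1a and blank ran from -0.052 to 0.05002 (Myl7), -0.06115 to 0.1175 (Myl4) and -0.03655 to 0.1156 (Sln to Pln), and the Myl4 share of PLCβ1b and blank from -0.1915 to -0.1211. The cause was not tested.

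Without the 2 hearts farthest from the median, r was 0.223 for Myl7 and Dkk3, 0.249 for Myl7 and Stard10, 0.153 for Myl4 and Dkk3, 0.402 for Myl4 and Stard10 and 0.265 for Sln and Dkk3. With 1 heart left out it ran from 0.311 (without PLCβ1a 9) to 0.619 for Myl7 and Dkk3 and from -0.194 to 0.282 (without PLCβ1a 14) for Myl4 and Stard10. Of the 10 genes most like the members 6, 4 and 2 were shared on log2(FPKM + 0.1), with group means removed and by Spearman's rho. Counts of 10 to 71 for Sln and 0 to 4 for Bmp10 limit what can be read from these genes.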

Other observations

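PLCβ1a heart 21 held the highest counts of all 8 fast skeletal muscle genes. Myh4 had 97 counts there, Myh1 77 and Myh2 68, where the medians over the hearts were 0.0, 0.0 and 0.5. The summed level of the list was 10.15 FPKM in this heart and at most 0.7822 in the blank and 0.7217 in the PLCβ1b hearts. Of 6 adipocyte genes, the same heart had the highest counts of 3, Adipoq (14), Plin1 (14) and Cfd (43), while Cidec, Lep and Ucp1 were highest in other hearts, at 9, 2 and 1 counts. Its Sln and Myl7 stood at 2.359 and 9.591 CPM, each second among the 18 hearts. Sarcolipin is also made in skeletal muscle, and the part of these cells in its Sln value was not tested.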
